A study of Arabidopsis thaliana with 4 samples.

Results

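Beta-glucosidases of glycoside hydrolase family GH1 remove glucose from small glucosides, and in plants they release stored defence compounds, lignin precursors and other bound metabolites. The 9 genes described here are BGLU15, BGLU16, BGLU19, BGLU25, BGLU40, BGLU44, BGLU45, BGLU46 and PYK10, out of 13356 genes that a probe set on the array identified. They were given by name. They are also the family genes whose signal was above a common floor on every array: of the 48 family genes looked up, 22 had a probe set of their own, 9 were above an intensity of 139 on all 4 arrays, 3 on some and 10 on none. The genes were thus chosen by their intensities on these arrays, and everything below is a description, with no test. The member nearest to the floor was BGLU45, with a lowest intensity of 142, and the nearest family gene outside was BGLU33, with a lowest intensity of 131.

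The genes were measured in whole seedlings of Arabidopsis thaliana, wild type of the Ler accession, 7 d old and kept under low light, on ATH1 oligonucleotide arrays. There were 4 groups with 1 array each: total RNA of non-stressed seedlings, total RNA after 12 h of hypoxia, RNA of large polysomes of non-stressed seedlings, whose label gives 12 h, and RNA of large polysomes after 12 h of hypoxia, the last 2 called polysomal RNA here. The label of the first group gives no time, so a difference in sampling time may enter the comparisons that use it. Large polysomes are mRNAs carrying many ribosomes, and the comparisons address how hypoxia changes the amount of an mRNA and the part of it found on large polysomes.

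Without replicates no spread between samples can be estimated, and no p-value, SD or SE is given. A ratio of 2-fold, a log2 of 1, served to count genes. Each array had been scaled to the same mean signal, so a ratio says how a gene stood against the average signal of its array. As an alternative, arrays were scaled on the spiked controls BioB, BioC, BioDn and CreX. These are controls of the hybridization, so this scaling does not measure mRNA per seedling or per fraction either. It multiplies each array by 1 factor, so a gene's place against the median gene can change only through the floor. Such a place is therefore no check of the scaling. As a measure of error within arrays, different probe sets for one gene gave log2 ratios that were apart by medians between 0.33 (hypoxia over control in total RNA) and 0.51 (polysomal over total RNA in hypoxia), depending on the comparison. Each of the 9 genes had 1 probe set, so none has such a check of its own. The measure comes from 30 to 62 genes, depending on the comparison, so its 95th percentile rests on few genes. It holds no difference between samples, and values are set beside it as a scale, not as a test. Intensities of different probe sets depend on their probes, so the level of one gene is compared across arrays and never with the level of another gene. In RNA of whole seedlings, fewer cells of a type and less RNA per cell cannot be told apart.

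The actin control, read by probes at both ends of its mRNA, gave a 3' over 5' ratio of 1.39 (control) and 1.22 (hypoxia) for total RNA and of 2.45 and 2.15 for the polysome fraction. A second actin pair gave 5.46 and 5.53 against 10.9 and 7.34, ubiquitin 1.49 and 1.04 against 2.02 and 1.24, and GAPDH 0.958 and 1.12 against 1.11 and 1.29. Polysomal RNA of control had the highest of the 4 values for both actin pairs and ubiquitin, and the part of this in the ratios of the 2 fractions was not tested. Of 19 core hypoxia genes looked up, 10 had a probe set and all 10 were at least 2-fold higher in hypoxia in both fractions. This checks the labels of hypoxia and control, but not those of the fractions. Of the organ markers, 3 of 11 root genes and 3 of 9 shoot genes had a probe set and all 6 were above the floor on at least 1 array, while none of the 6 xylem genes had one. The summed intensity of the root genes EXPA7, EXPA18 and AT4G26010 was 3833 in total RNA of control, 1189 in total RNA in hypoxia, 1704 in polysomal RNA of control and 1170.3 in polysomal RNA in hypoxia. That of the shoot genes was 7067, 6055, 4599 and 5292 in the same order. Each sum is carried mostly by its brightest probe set. LHCB4.2 alone had 6573, 5550, 4002 and 4813, and AT4G26010 alone had 2633, 850, 1003 and 821. In total RNA the shoot gene FMA went from 119, under the floor, to 257 in hypoxia, while LHCB4.2 and LHCB4.3 were lower in hypoxia.

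Some of the 9 genes lie beside other family genes on the chromosomes, by the RefSeq annotation of assembly TAIR10.1. BGLU45 and BGLU46 are direct neighbours on chromosome 1. BGLU15 on chromosome 2 is followed by BGLU28, BGLU29, BGLU17 and PEN2, BGLU16 on chromosome 3 lies between BGLU27 and DIN2, and BGLU44 on chromosome 3 is next to BGLU43. BGLU19, BGLU25 and PYK10 on chromosome 3 and BGLU40 on chromosome 1 had no family gene within 5 protein-coding genes.

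Across the 9 genes, most were below the average mRNA on large polysomes in control seedlings and close to it in hypoxia. The median log2 ratio of polysomal over total RNA was -0.62 in control and 0.04 in hypoxia, against -0.02 and -0.02 over all genes. On the spiked controls the control median of the 9 was 0.05 and 7 of them were above 0. The median of all genes moved with them to 0.59, so 8 of the 9 remained below it by the nature of this scaling. BGLU44, whose enzyme also cleaves mannose oligosaccharides, was above the average in control, at 0.73, and stood at 0.35 in hypoxia. BGLU19, below the average in control, was the farthest from it in hypoxia, at 0.70. The 2 monolignol glucosidase genes, BGLU45 and BGLU46, were the 2 that were at least 2-fold higher in polysomal RNA in hypoxia, as were 8.07% of all genes.

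**Figure D1:**
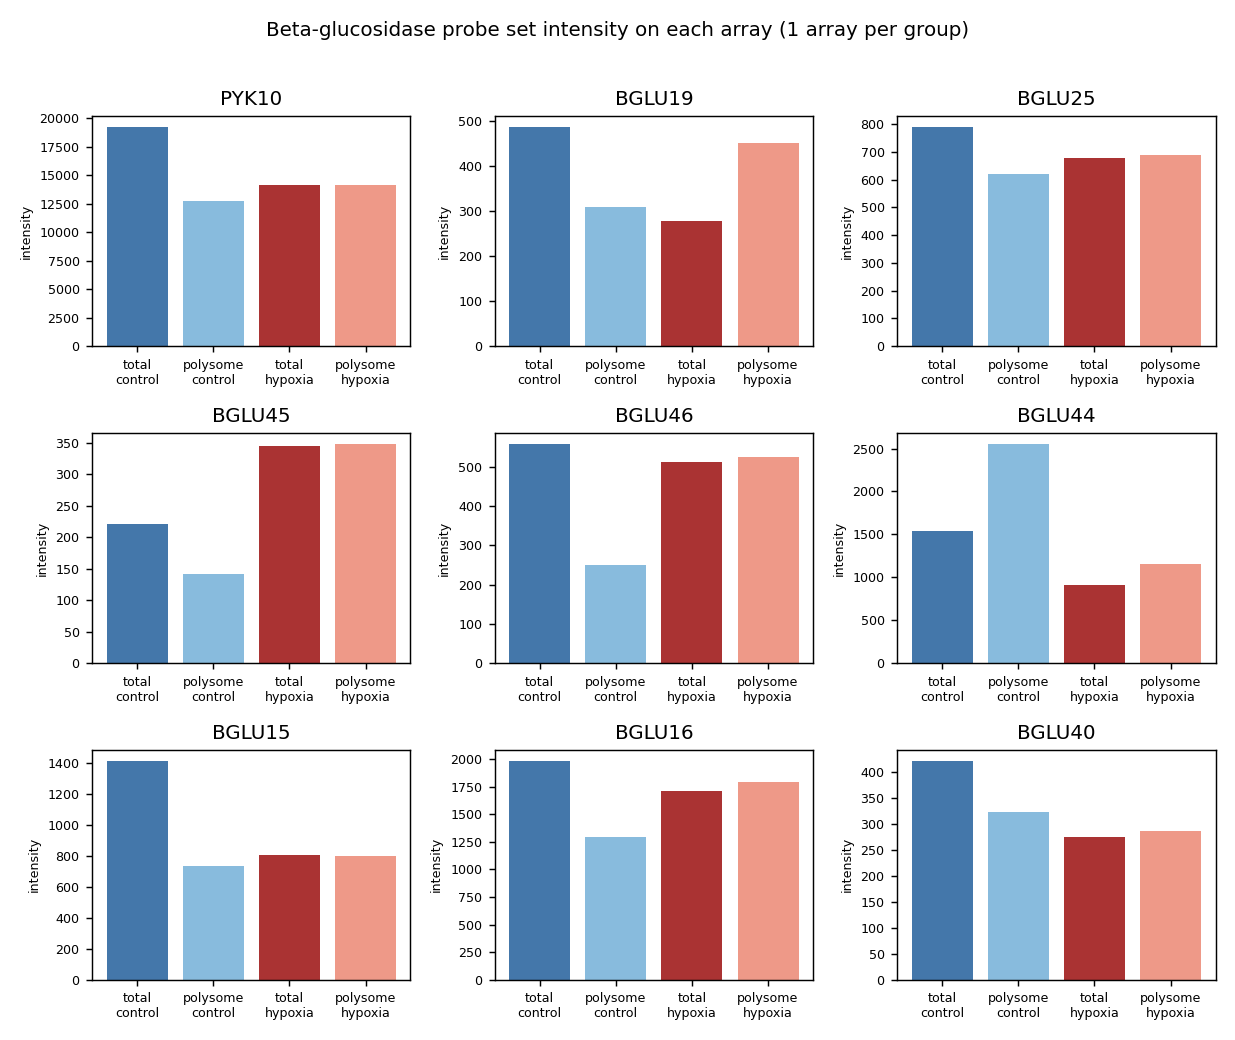
Probe set intensity (linear, arbitrary units, each vertical axis starting at 0) of the 9 genes in total and polysomal RNA of control and hypoxic seedlings, 1 bar for the 1 array of each group. For 6 genes (BGLU15, BGLU16, BGLU25, BGLU45, BGLU46 and PYK10) the lowest bar is polysomal RNA of control, while for BGLU44 that bar is the highest, at 2554.

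BGLU45 and BGLU46 encode beta-glucosidases that act on glucosides of monolignols, such as coniferin, and so can free the alcohols from which lignin is made. BGLU45 had an intensity of 221 in total RNA of control, 346 in total RNA in hypoxia, 142 in polysomal RNA of control and 349 in polysomal RNA in hypoxia. Both hypoxia arrays were thus above both control arrays. BGLU46 had 559 and 512 in total RNA of control and hypoxia, and 249 and 526 in polysomal RNA. Its values were alike on 3 arrays and low on that of polysomal RNA of control.

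In total RNA, BGLU45 was 1.56-fold higher in hypoxia, a log2 ratio of 0.64 at percentile 87.2 of all genes, and it was the only one of the 9 genes above 0. BGLU46 stood at -0.13, or 0.18 when arrays were scaled on the spiked controls. The difference between these neighbours, 0.77, was above the median difference between probe sets of the same gene in this comparison, 0.33, and below its 95th percentile, 0.95. In polysomal RNA, BGLU45 was 2.45-fold higher and BGLU46 2.12-fold higher, log2 ratios of 1.29 and 1.08 at percentiles 95.3 and 93.0. Scaled on the spiked controls neither was past 2-fold. The floor at the 60th percentile of intensity lies above the polysomal control signal of both genes. With it, the ratio of BGLU45 was a bound of 0.08 and that of BGLU46 one of 0.68.

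The ratio of polysomal over total RNA was -0.64 for BGLU45 and -1.17 for BGLU46 in control, and 0.01 and 0.04 in hypoxia. BGLU46, 2.25-fold lower in the polysomal fraction of control, had the lowest such ratio of the 9 genes, at percentile 1.46 of all genes. These control ratios became, on the spiked controls, 0.04 for BGLU45 and -0.49 for BGLU46, so that of BGLU46 was not past 2-fold there. With the floor at the 60th percentile that of BGLU46 was -0.76 or less. This is a bound and does not say whether the ratio was past 2-fold. Association with large polysomes, the log2 difference between these ratios, was 0.65 higher in hypoxia for BGLU45 and 1.21 higher for BGLU46. On spiked-control scaling these were -0.02 and 0.54, where the median of all genes was -0.67.

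Other genes of lignin formation were sparsely covered. Of the 31 written down, 7 had a probe set and 5 had a ratio in total RNA, that of UGT72E3 being a bound. All 5 were below 0 in hypoxia and at least 2 were at least 2-fold lower, as were 8.72% of all genes. Their median, which is the bound of UGT72E3, was -0.87 or less, against -0.06 over all genes. UGT72E1, UGT72E2 and UGT72E3 encode glucosyltransferases that attach glucose to monolignols and related phenols, the reaction opposite to that of BGLU45 and BGLU46. UGT72E2 went from 923 in total RNA of control to 326 in hypoxia, a log2 ratio of -1.50, and from 487 to 249.9 in polysomal RNA, a ratio of -0.96. UGT72E1 went from 1557 to 720.3 in total RNA, a ratio of -1.11, and from 1583 to 943 in polysomal RNA, a ratio of -0.75. UGT72E3 was at 255 in total RNA of control and below the floor on the other 3 arrays, so it was at least 1.83-fold lower in hypoxia. All 3 glucosyltransferase genes were therefore lower in total RNA in hypoxia, while BGLU45 was higher and BGLU46 was near 0. The 5 lignin genes were also below 0 after quantile normalization and on the spiked controls, which moved the median over all genes by 0.11 and 0.28. On the latter UGT72E2, at -1.20, was past 2-fold and UGT72E1, at -0.81, was not.

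PRX72 (AT5G66390), which encodes a peroxidase of lignin formation, had 807 and 597 in total RNA of control and hypoxia and 304 and 876 in polysomal RNA. Its ratio of polysomal over total RNA was -1.41 in control and 0.55 in hypoxia, a change of 1.96. On the spiked controls its control ratio was -0.74 and the change 1.30. HCT, an acyltransferase early in the pathway, had fraction ratios of 0.06 and -0.01, so the lignin list was not uniform in this respect. Over the 4 lignin genes above the floor on every array, the change of association had a median of 0.45, with 3 above 0 and 1 at least 2-fold. Of all genes, 49.0% were above 0 and 3.03% at least 2-fold higher. After quantile normalization 4 of the lignin genes were above 0, but 1 on the spiked controls.

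**Figure D2:**
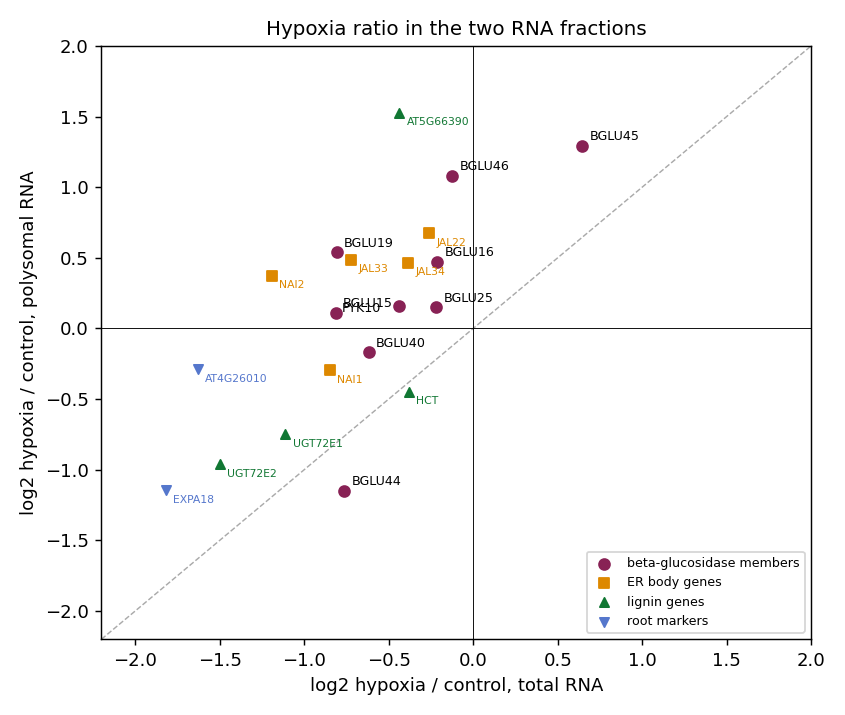
Log2 ratio of hypoxia over control in total RNA (horizontal) and in polysomal RNA (vertical) for the 9 beta-glucosidase genes (circles), ER body genes (squares), lignin genes (upright triangles) and root markers (inverted triangles); genes below the floor on an array used, such as EXPA7 and UGT72E3, are not drawn. On the dashed line both ratios are equal; 8 of the 9 circles lie above it and BGLU44, at -0.76 and -1.15, lies below.

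PYK10 (also BGLU23) encodes the main beta-glucosidase of ER bodies, spindle-shaped compartments of the endoplasmic reticulum that are abundant in roots and seedlings of the mustard family. PYK10 can hydrolyse glucosides that include indole glucosinolates, and ER bodies are regarded as part of the defence of these plants. Its intensity was 19211 in total RNA of control, 14176.5 in total RNA in hypoxia, 12709 in polysomal RNA of control and 14169.5 in polysomal RNA in hypoxia. The first value stands above the other 3, which lie close together. The brightest probe set of an array ranged from 18689 to 28678, so PYK10 lay in the upper part of the scale on every array, where loss of linearity cannot be checked from these values.

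PYK10 stood at -0.44 in total RNA in hypoxia, 1.36-fold lower, and at 0.16 in polysomal RNA, which became -0.11 after quantile normalization and -0.21 on the spiked controls. Its ratio of polysomal over total RNA was -0.60 in control, or 0.08 on the spiked controls, and 0.00 in hypoxia. The change of association was 0.60, at percentile 89.3 of all genes, or 0.30 after quantile normalization and -0.07 on the spiked controls. Against BGLU45 and BGLU46, PYK10 was lower by 1.14 and 0.92 in its hypoxia ratio in polysomal RNA, both differences below the 95th percentile of same-gene probe sets, 1.30. In total RNA it was lower than BGLU45 by 1.08, beyond that percentile for this comparison, 0.95, and lower than BGLU46 by 0.31. Its ratio of polysomal over total RNA in control was within 0.04 of that of BGLU45 and was higher than that of BGLU46 by 0.57.

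BGLU19 and BGLU25 belong to the same branch of the family as PYK10. BGLU19 had intensities of 487 and 278 in total RNA of control and hypoxia, and 310.1 and 451 in polysomal RNA. The 2 fractions changed places: total RNA was the brighter one in control and polysomal RNA in hypoxia. The log2 ratio of polysomal over total RNA went from -0.65 to 0.70, at percentiles 9.35 and 94.8, and the change of 1.35, 2.55-fold, was the highest of the 9 genes, at percentile 99.2. On the spiked controls the control ratio became 0.02 and the change 0.68, no longer past 2-fold. BGLU25 varied least, from 621 in polysomal RNA of control to 789 in total RNA of control, a 1.27-fold range, with 679 and 689 in total and polysomal RNA of hypoxia. Its fraction ratio was -0.35 in control and 0.02 in hypoxia. Its change of association was 0.37, or -0.30 on the spiked controls, below the median difference of same-gene probe sets for this measure, 0.47.

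Genes of ER body formation and of the PYK10 complex had low ratios in the same comparisons as PYK10 and BGLU19. Of the 15 written down, 6 had a probe set and 5 were above the floor on every array. These were NAI1, a transcription factor needed for ER bodies, NAI2, an ER body component, and JAL22, JAL33 and JAL34, jacalin-related lectins of the family found in complexes with PYK10. All 5 were below 0 in total RNA in hypoxia, with a median of -0.72 against -0.06 over all genes and NAI2 at least 2-fold lower, at -1.19, as were 8.72% of all genes. All 5 were also below 0 in polysomal over total RNA of control, with a median of -1.03 against -0.02 and 3 at least 2-fold lower, namely JAL22 at -1.07, JAL33 at -1.11 and JAL34 at -1.03, where the share of all genes was 2.78%. Their change of association was above 0 in 5 of 5, as for 49.0% of all genes, with a median of 0.93 against -0.01. NAI2 at 1.57 and JAL33 at 1.21 were past 2-fold, as were 3.03% of all genes upward. The spiked controls moved the median of all genes by 0.62 in the control fraction ratio and by -0.65 in the change of association. On them, 4 of 5 genes were below 0 in total RNA and 3 of 5 in the control fraction ratio. The change of association was above 0 in 4 of 5. Against the median gene all 5 kept the directions given, but this scaling could alter those only through the floor. Scaled on these controls, JAL22, JAL33 and JAL34 stood at -0.40, -0.43 and -0.36 in the control fraction ratio and NAI2 at -0.89 in total RNA, so none of these was past 2-fold. In the change of association NAI2 stood at 0.90 and JAL33 at 0.54 there, also not past 2-fold.

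The root markers, which share the organ where PYK10 is best known, had low ratios there as well. In total RNA in hypoxia EXPA18 stood at -1.82, AT4G26010 at -1.63 and EXPA7, below the floor in hypoxia, at -1.29 or less. In control, the ratio of polysomal over total RNA was -0.67, -1.39 and -1.07 for these 3 genes, the first 0.00 on the spiked controls. The change of association was 0.67 for EXPA18 and 1.34 for AT4G26010, or 0.01 and 0.67 on the spiked controls. Low ratios were not confined to root genes. The shoot marker LHCB4.2 stood at -0.24 in total RNA in hypoxia and -0.72 in the control fraction ratio, with a change of 0.51. LHCB4.3 stood at -0.59, 0.13 and 0.33 in the same order. FMA stood at 0.88 or more and 0.42 or more in the first 2 and had no change value. The part of these markers in the values of PYK10 and the other beta-glucosidase genes was not tested. Of the 11 genes written down for indole glucosinolates only UGT74B1, a glucosyltransferase that makes these compounds, had a probe set, and it was at least 2-fold lower in hypoxia in both fractions, at -1.14 and -1.09.

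BGLU44 encodes a beta-glucosidase that also acts on mannose oligosaccharides of the cell wall. Its intensity was 1536 in total RNA of control, 905 in total RNA in hypoxia, 2554 in polysomal RNA of control and 1153 in polysomal RNA in hypoxia. Both hypoxia arrays were below both control arrays, and polysomal RNA was above total RNA in both conditions. It was 1.70-fold lower in total RNA in hypoxia, at -0.76, and 2.21-fold lower in polysomal RNA, at -1.15 and percentile 7.53.

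The ratio of polysomal over total RNA was 0.73 for BGLU44 in control, at percentile 93.9, and 0.35 in hypoxia, and on the spiked controls the first became 1.41. It differed in control from the other 8 genes by 1.08 to 1.90, beyond the 95th percentile of same-gene probe sets, 1.58, for 2 of them. In the change of association, -0.38 for BGLU44, the differences ran from 0.75 to 1.73 and were beyond that percentile, 1.02, for 5 of 8. The change for BGLU44 was -1.05, past 2-fold, on the spiked controls. In hypoxia the fraction ratio of BGLU44 was within 0.37 of every other of the 9 genes.

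BGLU15, BGLU16 and BGLU40 complete the set. BGLU15 encodes an enzyme that removes the glucose at one end of flavonol bisglycosides, and BGLU16 belongs to the same branch of the family. BGLU15 had intensities of 1416 and 806 in total RNA of control and hypoxia, and 737 and 796 in polysomal RNA. Total RNA of control was thus high and the other 3 arrays were alike. Its log2 ratio in total RNA in hypoxia was -0.81, the lowest of the 9 genes, and its fraction ratio went from -0.94 in control, at percentile 3.64, to -0.02, a change of 0.92. On the spiked controls its control fraction ratio was -0.27 and the change 0.26.

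BGLU16 had 1985 and 1713 in total RNA and 1292 and 1792 in polysomal RNA, in control and hypoxia. It was lowest in polysomal RNA of control, with a fraction ratio of -0.62 there (0.05 on the spiked controls) and 0.06 in hypoxia. BGLU40 had 422 and 275 in total RNA and 322 and 287 in polysomal RNA. Both of its control values were above both hypoxia values, with ratios of -0.62 in total RNA and -0.17 in polysomal RNA, the latter 0.01 after quantile normalization. Its fraction ratio was -0.39 in control, or 0.28 on the spiked controls, and 0.06 in hypoxia.

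Flavonol genes were few on the array. Of 12 written down, 3 had a probe set and 1 was above the floor on every array. UGT78D2, which adds glucose to flavonols, had 282 and 335 in total RNA and 259.6 and 267 in polysomal RNA, and UGT78D1, which adds rhamnose, had ratios of -0.02 in total RNA and, as a bound, -0.19 in polysomal RNA. AT1G06000 had 151 and 155 in total and polysomal RNA of control, just above the floor, and 4.50 and 3.60 in hypoxia, far below it. It was at least 1.08-fold and 1.11-fold lower in hypoxia, and these bounds do not say whether it was past 2-fold.

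Over all genes, 46.0% were above 0 in total RNA in hypoxia and 54.0% were below. Of the 9 genes, 1 was above 0 and 8 were below, with a median of -0.44. None was past 2-fold, while over all genes 5.42% were past 2-fold upward and 8.72% downward. In polysomal RNA 7 of the 9 were above 0, with a median of 0.16, and 45.3% of all genes were above 0. BGLU45 and BGLU46 were at least 2-fold higher, where the share of all genes was 8.07%, and BGLU44 was at least 2-fold lower, where it was 10.0%. The sign of the hypoxia ratio was negative in total RNA and positive in polysomal RNA for 6 of the 9, a combination found in 10.7% of the 5847 genes above the floor on every array. On spiked-control scaling 4 genes were above 0 in total RNA and 4 in polysomal RNA. Against the median gene the counts were 1 and 7, which this scaling could alter only through the floor.

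For polysomal over total RNA of control, 8 of the 9 genes were below 0 and 1 was above, where 52.7% of all genes were below. Against the median gene this count of the 9 was the same after quantile normalization. The other scalings use 1 factor per array and could alter it only through the floor. BGLU46 alone was at least 2-fold lower, against 2.78% of all genes, and none was at least 2-fold higher, against 2.08%. In hypoxia 7 of the 9 were within 0.1 of 0, as were 21.1% of all genes, and none was past 2-fold, against 1.06% higher and 1.07% lower. Association was higher in hypoxia for 8 of 9, with a median of 0.65, and for 49.0% of all genes. On the spiked controls 4 of 9 were above 0, with a median of -0.02. There 8 of 9 were above the median gene, a count that this scaling could alter only through the floor. On the main scaling BGLU19 and BGLU46 were past 2-fold, against 3.03% of all genes, and none was at least 2-fold lower, against 1.90%. On the spiked controls BGLU19, at 0.68, and BGLU46, at 0.54, were no longer past 2-fold, and BGLU44, at -1.05, was at least 2-fold lower. With the floor at the 60th percentile neither BGLU19 nor BGLU46 had a change value. On the main scaling the changes of BGLU19 and BGLU46 were also beyond the 95th percentile of same-gene probe sets, 1.02 over 30 genes. No ratio of the 9 genes in the other 4 comparisons was beyond the 95th percentile of its comparison. A gene below 0 in the control fraction ratio and above 0 in the change of association was common, at 35.8% of all genes, and the measures share arrays, so these counts are not independent. The array of polysomal RNA of control enters both of these measures, and it held the lowest value of 6 of the 9 genes, against 28.6% of all genes. Total RNA of control held the highest value of 7 of the 9, against 23.1%.

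**Figure D3:**
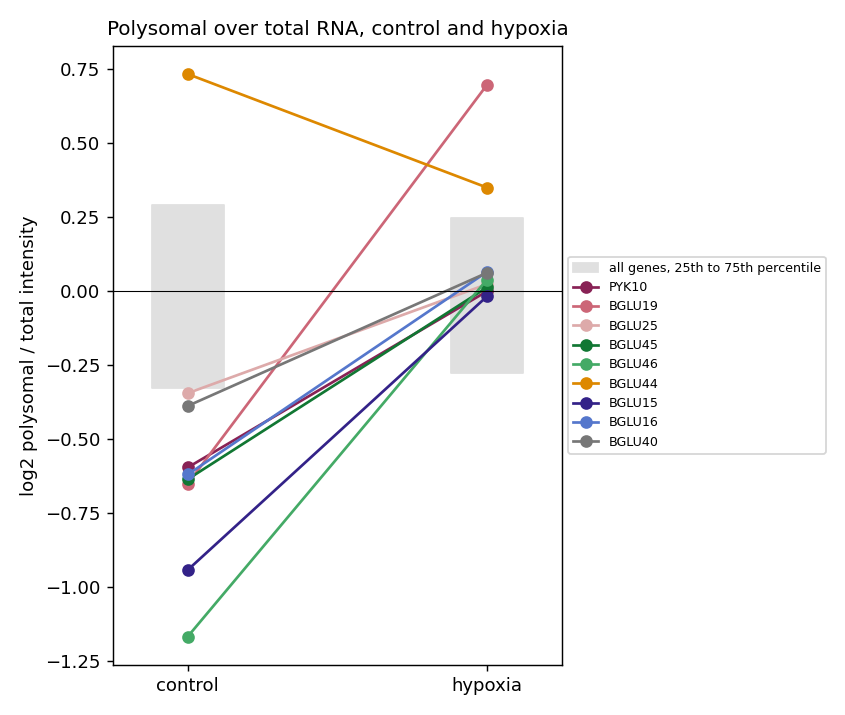
Log2 ratio of polysomal over total RNA in control and in hypoxia for the 9 genes, joined by lines, with grey bars for the 25th to 75th percentile of all genes. In control 8 genes lie from -1.17 to -0.35 and BGLU44 at 0.73; in hypoxia 7 genes lie within 0.1 of 0, with BGLU19 at 0.70 and BGLU44 at 0.35 above them.

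**Figure D4:**
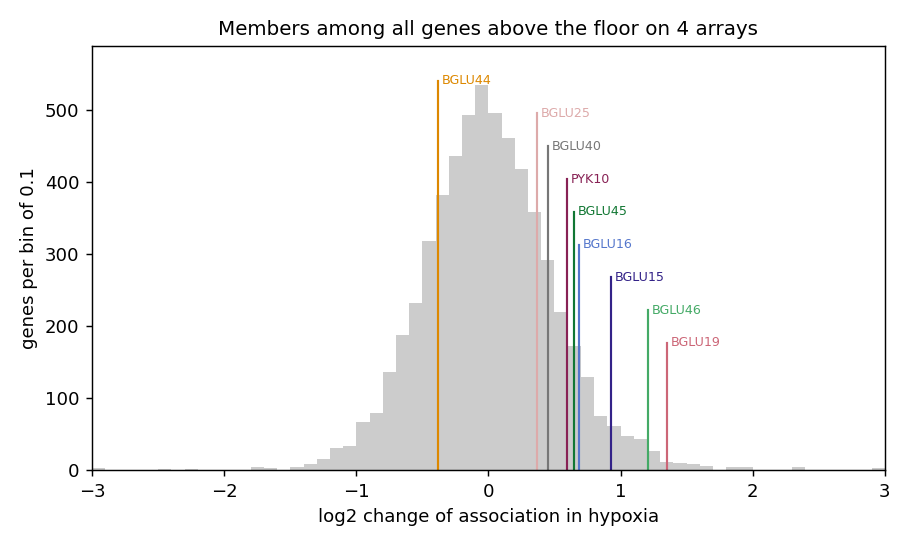
Number of genes (vertical, per bin of 0.1) by log2 change of association with large polysomes in hypoxia (horizontal) for the 5847 genes above the floor on every array, with a vertical line for each of the 9 genes; values beyond 3 are drawn in the end bins and line heights only separate the names. BGLU44 lies at -0.38 and the others from 0.37 (BGLU25) to 1.35 (BGLU19).

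Among themselves, the most alike intensities over the 4 arrays, each gene centred on its own mean, were those of BGLU25 and PYK10, with a root mean square difference of 0.10 on the log2 scale, and the least alike were those of BGLU44 and BGLU45, at 1.08. BGLU45 and BGLU46 differed by 0.31. Among all 5846 other genes, those nearest to PYK10 by the same measure were AT2G32090, LigB and AT1G20070, at 0.02 to 0.03, and 70 genes lay within 0.1. The nearest to BGLU45 were AT3G07860, AT5G24460 and AT4G17370, all at 0.04, with 29 genes within 0.1. The nearest to BGLU46 were AT2G27830, AT2G18210 and AT5G56980, at 0.05 to 0.08, with 6 genes within 0.1. With 4 arrays such likeness is a description only.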

How the data were processed

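The authors' deposited table holds linear intensities of 22810 probe sets on each of 4 arrays; the software that made them is not given in the sources used here, and the mean between the 2nd and 98th percentiles was alike on all arrays. Per the file headers, the array of total RNA in hypoxia was scanned 2 times and the others 1 time. Intensities were rescaled to one such mean over 22746 non-control probe sets (factors 0.999 to 1.001). The floor was the highest 40th percentile of an array, 139; lower values were set to it before log2. No ratio was formed where both values were under the floor, and where 1 was, the ratio is a bound. Names came from the platform annotation, updated through RefSeq: 13513 probe sets had 1 gene (13436 matched), 503 several and 8730 none listed; BGLU21 and BGLU22 share 1 probe set, which was not used. The brightest probe set stood for a gene, which left 13356 genes. Members, lists and thresholds were chosen with earlier results of these data known. Named were all 9 members, list genes past 2-fold or at a list's extremes, further list genes chosen after their values were seen, and the 3 genes nearest to PYK10, BGLU45 and BGLU46. Alternatives were quantile normalization, scaling on 18 spiked-control probe sets, values as deposited, floors at the 20th or 60th percentile, no floor with log2(value + 32), and the mean of probe sets. The number of arrays limits the precision. Calculations used Python 3.11.15, pandas 2.3.3 and numpy 2.4.6. On simulated data only the hypoxia ratio in total RNA was tested, with changes set in bright genes. The other comparisons, the bounds and the other scalings were not.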

Additional observations from a re-analysis of the deposited data

Results flagged for a closer look

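In 6 of the 9 genes the log2 ratio of hypoxia over control was below 0 in total RNA and above 0 in polysomal RNA, so the 2 fractions moved in opposite directions. With 1 array per group the difference was not tested. Opposite signs of either kind were seen in 22.8% of the 5847 genes above the floor on every array. The difference, polysomal minus total, was 1.35 for BGLU19, 1.21 for BGLU46, 0.92 for BGLU15, 0.68 for BGLU16, 0.60 for PYK10 and 0.37 for BGLU25. The signs rest on the scaling: on the spiked controls BGLU16, BGLU25 and BGLU46 were above 0 in total RNA and BGLU15, BGLU25 and PYK10 were below 0 in polysomal RNA.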

How the results depend on the processing

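The counts of members past 2-fold (0 higher and 0 lower in total RNA in hypoxia, 2 and 1 in polysomal RNA, 0 and 1 in polysomal over total RNA of control, 0 and 0 in hypoxia, 2 and 0 in the change of association) were the same under quantile normalization, the values as deposited, the floor at the 20th percentile and the mean of probe sets. Of these settings only quantile normalization could move the members by more than a trace. Each member has 1 probe set and lies above the main floor on every array, and the deposited values differ by factors of 0.999 to 1.001. On spiked-control scaling, 0 were higher in polysomal RNA in hypoxia, 1 (BGLU44) was higher and 0 lower in the control fraction ratio, and 0 were higher and 1 (BGLU44) lower in the change of association. With the floor at the 60th percentile, where 5 members were above it on all arrays, 0 were higher in polysomal RNA, 0 lower in the control fraction ratio and 0 higher in the change of association. There BGLU45 and BGLU46 in polysomal RNA and BGLU46 in the control fraction ratio had bounds, which do not say whether they were past 2-fold. Without a floor, 1 was higher in polysomal RNA. Of 308 single ratios with a value, 287 moved by less than the median difference of same-gene probe sets. These include 45 each for the values as deposited, the lower floor and the mean of probe sets, which could hardly move them. Of the 21 that moved more, 18 were on spiked-control scaling and 3 with the higher floor. Ratios that the higher floor left without a value, among them the changes of BGLU19 and BGLU46, were not counted. No member past 2-fold changed sign. No paired analysis was possible because each group has 1 array, and for the same reason no array could be left out. Low signal limits BGLU45 most, at 142 against a floor of 139.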

Other observations

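The 3 other family genes above the floor on some arrays gave bounds or near-floor values. BGLU28, next to BGLU15 on chromosome 2, had intensities of 102 and 214 in total RNA of control and hypoxia and 49.7 and 194 in polysomal RNA, at least 1.54-fold and 1.40-fold higher in hypoxia, while BGLU15 was 1.76-fold lower in total RNA. BGLU42 went the other way, with 231 and 106 in total RNA and 238 and 98.2 in polysomal RNA, at least 1.66-fold and 1.71-fold lower. BGLU33 had 131 and 142 in total RNA and 168 and 207 in polysomal RNA.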
